A study of Mus musculus with 4 samples.

Results

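The HoxD cluster is a run of 9 homeobox genes, Hoxd1, Hoxd3, Hoxd4 and Hoxd8 to Hoxd13, on mouse chromosome 2, with long stretches of regulatory DNA on either side. Accessible chromatin of the locus was taken from ATAC-seq peak lists of limb cells by position alone. Every peak that overlapped the interval from 73.90 to 75.60 Mb of build mm10 was kept, and each peak is called a region below. The interval was divided into the centromeric landscape (73.90 to 74.66 Mb, on the Hoxd13 side), the cluster itself (74.66 to 74.77 Mb) and the telomeric landscape (74.77 to 75.60 Mb, on the Hoxd1 side). It held 180 of 99427 peaks of the E10.5 list and 38 of 37548 peaks of the E11.5 list, where E stands for embryonic day.

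The tissue was fore- and hindlimb of wild-type mouse embryos, and the titles give 2 replicates for E10.5 and 2 for E11.5. In the protocol text the younger embryos are E10. Both groups are wild type with no treatment listed, fore- and hindlimb cells were not separated, and no strain, sex or number of pooled embryos is given in the labels. Each list is named for both replicates of its stage, so there was no spread between replicates, no test between stages, and no depth per sample. Whether the 2 lists share a scale is not stated, so their values are set side by side. The E10.5 list is called the earlier list and the E11.5 list the later one.

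Hox genes encode homeodomain transcription factors that assign position along the body and limb axes. In the limb, Hoxd genes are known to be switched on in successive phases, the first linked to the arm and forearm and the later one to the digits. The telomeric landscape is known for enhancers of the first phase and the centromeric landscape for digit enhancers. Genes at the Hoxd1 end of the cluster act earlier and more proximally in development than those at the Hoxd13 end, and silent Hox clusters are known to be covered by Polycomb proteins.

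The start sites of the 9 genes were taken from RefSeq promoters of GRCm38.p6, which has the mm10 coordinates. All 9 genes matched, with 10 start sites, since Hoxd11 has 2. The 250 bases upstream of 5 start sites are shown here, 5′ to 3′, because these sites differ in whether the E11.5 list holds a region at them. Capitals mark CpG dinucleotides.
Hoxd13 (chr2:74667975-74668224, plus strand): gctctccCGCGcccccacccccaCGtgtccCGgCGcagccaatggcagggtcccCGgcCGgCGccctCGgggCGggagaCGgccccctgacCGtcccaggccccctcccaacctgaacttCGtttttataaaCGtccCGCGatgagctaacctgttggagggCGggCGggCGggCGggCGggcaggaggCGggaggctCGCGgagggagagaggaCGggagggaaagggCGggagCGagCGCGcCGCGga
Hoxd11, first start site (chr2:74679308-74679557, plus strand): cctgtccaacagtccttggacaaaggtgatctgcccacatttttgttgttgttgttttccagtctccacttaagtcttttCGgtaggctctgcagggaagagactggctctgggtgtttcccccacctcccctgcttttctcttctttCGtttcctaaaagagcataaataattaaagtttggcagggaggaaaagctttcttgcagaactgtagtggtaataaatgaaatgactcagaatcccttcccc
Hoxd11, second start site (chr2:74682073-74682322, plus strand): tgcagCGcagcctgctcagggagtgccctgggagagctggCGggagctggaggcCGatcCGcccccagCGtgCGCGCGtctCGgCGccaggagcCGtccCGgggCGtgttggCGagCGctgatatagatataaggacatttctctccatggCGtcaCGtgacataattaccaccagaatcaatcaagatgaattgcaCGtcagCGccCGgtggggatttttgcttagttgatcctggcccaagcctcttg
Hoxd4 (chr2:74721728-74721977, plus strand): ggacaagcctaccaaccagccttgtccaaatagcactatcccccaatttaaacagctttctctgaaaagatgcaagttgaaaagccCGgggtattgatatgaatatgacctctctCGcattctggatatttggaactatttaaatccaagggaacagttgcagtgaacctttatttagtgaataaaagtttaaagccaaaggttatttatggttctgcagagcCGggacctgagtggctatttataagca
Hoxd1 (chr2:74762730-74762979, plus strand): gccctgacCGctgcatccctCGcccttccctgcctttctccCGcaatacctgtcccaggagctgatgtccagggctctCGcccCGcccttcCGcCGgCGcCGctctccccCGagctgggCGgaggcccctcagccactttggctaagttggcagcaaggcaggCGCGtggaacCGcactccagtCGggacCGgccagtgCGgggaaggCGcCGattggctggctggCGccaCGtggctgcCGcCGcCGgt

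Counted over the full promoter of 300 bases (250 before and 50 after the start), the sequences ranged from CpG-poor to CpG-dense. Hoxd13 held 37 CpG, Hoxd1 29 and the second Hoxd11 start site 25. Hoxd10 held 22, Hoxd9 and Hoxd3 20 each, Hoxd12 13 and Hoxd8 6. The first Hoxd11 start site and Hoxd4 held 4 each, the lowest of the 10. These 2 are also the Hoxd start sites with no E11.5 region within 1 kb. Among all start sites in the RefSeq table with at most 4 CpG, 18.9% had an E10.5 region within 1 kb and 8.70% an E11.5 region. Among start sites with over 4 CpG these shares were 81.4% and 72.8%. The split at 4 is the count held by Hoxd4 and the first Hoxd11 start site, which both had an E10.5 region. Whether CpG content bears on their lack of an E11.5 region was not tested. Short motifs were searched on both strands of the same 300 bases. The CCAAT box (CCAAT) was found at 7 of the 10 Hoxd start sites against 37.4% of all promoters, the GC box (GGGCGG) at 4 against 35.7%, and the TATA box (TATAAA) at 2 against 13.6%. The last 2 were Hoxd13 and Hoxd4. The composite PBX-HOX motif (TGATTNAT) was found at 1, the second Hoxd11 start site, against 3.22%. A match describes letters and not a bound site.

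The whole E10.5 list had 2.66 times as many regions on chromosomes 1 to 19, X and Y as the E11.5 list (99356 and 37413), and in the HoxD interval the ratio was 4.74. The stage, the libraries and their depth cannot be told apart as sources of this gap. In cells taken in bulk, fewer cells with an open region and less accessibility per cell cannot be told apart either. Of all protein-coding genes with a listed start site, 68.2% had a promoter region in the earlier list and 62.8% in the later. Of limb mesenchyme marker genes with a listed start site, 9 of 9 and 8 of 9 had such a region (within 1 kb of a start site), with Tbx4 the exception. Of 6 ectoderm genes, 6 and 3 had one. Of 3 endothelial genes it was 2 and 1, of 5 blood genes 2 and 4, of 1 muscle precursor gene 1 and 0, of 2 nerve and glia genes 2 and 1, and of 5 genes of other organs 2 and 1. Their part in the HoxD values was not tested.

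All 3 stretches had more regions at E10.5 than at E11.5, the landscapes by more than the whole lists and the cluster by about as much. At E10.5 the centromeric landscape held 63 regions, the cluster 33 and the telomeric landscape 84. At E11.5 these numbers were 9, 13 and 16. The ratio of the numbers was 7.0 in the centromeric and 5.25 in the telomeric landscape, against 2.66 for the whole lists, and 2.54 in the cluster. By covered bases the cluster ratio was 4.35, against 2.88. The whole lists hold a larger share of regions near start sites than the landscapes. Regions over 1 kb from a listed start site numbered 83824 and 24768 on all chromosomes. They numbered 59 and 7 in the centromeric landscape, and 79 and 14 in the telomeric landscape. The cluster was the densest stretch in both lists, with 30.0 and 11.8 regions per 100 kb. The centromeric landscape had 8.29 and 1.18, and the telomeric landscape 10.1 and 1.93. Regions covered 49.0% of the bases of the cluster in the earlier list and 11.3% in the later. They covered 6.71% and 0.807% of the centromeric landscape, and 7.04% and 1.04% of the telomeric landscape. When the chromosomes were tiled into 1591 windows of the same length, the number in the HoxD interval stood at percentile 97.5 of these windows in the earlier list and at 82.0 in the later.

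**Figure D1:**
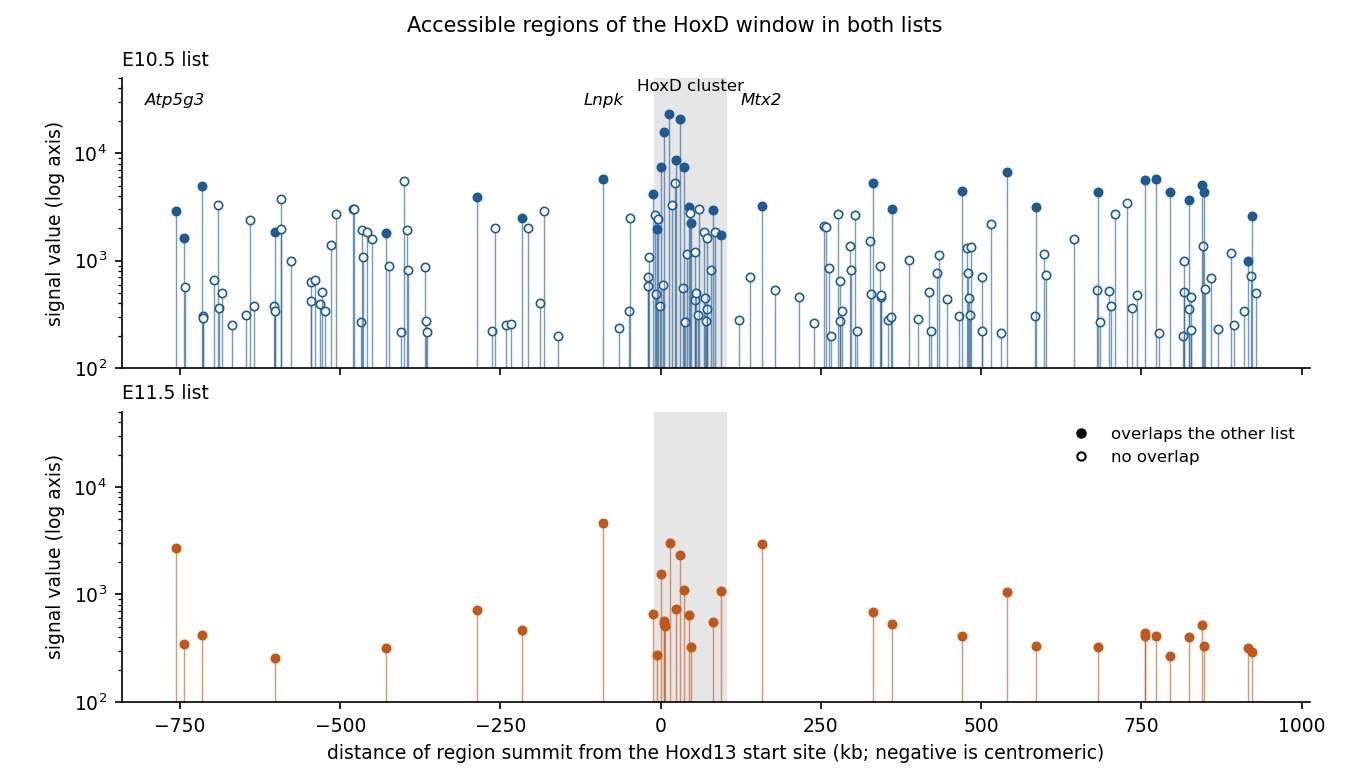
Regions of the HoxD interval by the distance of their summit from the Hoxd13 start site in kb (x) and the deposited signal value on a log axis (y), with the E10.5 list above and the E11.5 list below. Filled points overlap a region of the other list, open points do not, and the grey band is the cluster: all 38 E11.5 points are filled, and 145 of the 180 E10.5 points are open.

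All 38 E11.5 regions lay on an E10.5 region (overlap of at least 1 bp). Over all chromosome regions of the E11.5 list 91.8% did so. In the other direction, 35 of the 180 earlier regions lay on a later one, which is 19.4% (95% Wilson interval 14.3 to 25.8%), against 32.3% over all chromosome regions of the E10.5 list. The interval covers counting error only. By part, the overlapping E10.5 regions were 9 of 63 in the centromeric landscape (14.3%, 7.70 to 25.0%), 11 of 33 in the cluster (33.3%, 19.8 to 50.4%) and 15 of 84 in the telomeric landscape (17.9%, 11.1 to 27.4%). The cluster stood near the share of the whole list, and both landscapes below it. These shares mix regions near to and far from start sites. In the cluster 15 of the 33 regions lay within 1 kb of a start site, against 15.6% of the whole list. The nearness of the cluster to the whole list is therefore not a comparison of like regions. An overall share for promoter regions alone was not counted. Overlapping regions of the interval had a median E10.5 signal of 4127 and the others 540, where the signal is the authors' value for the whole region. Over all chromosome regions of the E10.5 list these medians were 3131 and 543. Among distal regions, those with no listed start site within 1 kb, 7 of 59 centromeric, 2 of 18 cluster and 13 of 79 telomeric ones overlapped, against 24.0% of all distal regions. All 24 distal E11.5 regions of the interval overlapped, against 88.6%. Of the 14 regions of the interval in the top 10% of the E10.5 list by signal, 12 overlapped, against 96.7%. The numbers also depend on list length. With the earlier list reduced by signal to the length of the later one, the centromeric landscape kept 27 regions, the cluster 19 and the telomeric landscape 27, of which 33.3%, 57.9% and 51.9% overlapped, against 68.9% of the whole reduced list. Reduced by −log10 p the shares were 39.1%, 68.8% and 55.6%, against 70.2%.

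Over all E11.5 regions that overlapped the E10.5 list, 76.9% had a summit within 100 bp of an E10.5 summit, at a median distance of 27.0 bp. In the telomeric landscape 13 of 16 did, with a median of 2.50 bp, and in the centromeric landscape 8 of 9, with a median of 29.0 bp. Both are near the share of the list. In the cluster 6 of 13 did, with a median of 178 bp and a maximum of 1091 bp. There many E10.5 regions were broad, and the one at Hoxd12 contained 3 separate E11.5 regions.

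Within the cluster the side from Hoxd13 to Hoxd8 was mostly covered by regions at E10.5. They took up 79.3% of these 39.7 kb at E10.5 and 22.2% at E11.5. From the end of Hoxd8 to Hoxd1, over 57.2 kb, they covered 32.8% and 4.58%. In the E10.5 list 8 of the 33 cluster regions were wider than 2 kb, against 6.47% of all regions, and in the E11.5 list 2 of 13, against 4.09%. Start sites lay within 1 kb of 15 of the 33 and 10 of the 13 cluster regions, against 15.6% and 33.8% of the lists. The broadest E10.5 region was 7577 bp long and ran from 74678461 to 74686037 over Hoxd11. A region of 6536 bp (74694980 to 74701515) covered Hoxd9 and the end of Hoxd10, and one of 5134 bp (74672426 to 74677559) covered Hoxd12 and its upstream DNA. Their signals of 23028, 20855 and 15766 stood at percentiles 99.9, 99.9 and 99.6 of the E10.5 list.

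**Figure D2:**
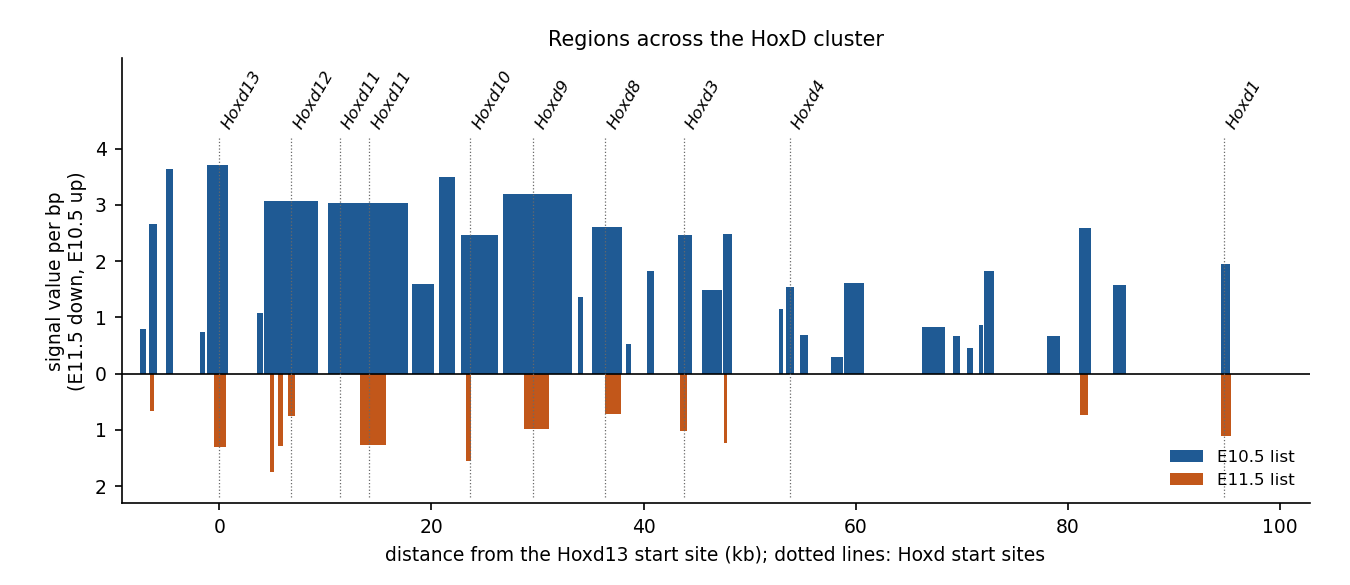
Signal value per bp of each region (bar height; bar width is region width) across the cluster, by distance from the Hoxd13 start site in kb, with E10.5 regions upward and E11.5 regions downward and dotted lines at the 10 Hoxd start sites. E10.5 bars fill most of the stretch from Hoxd13 to Hoxd8, and no E11.5 bar lies at Hoxd4.

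All 9 Hoxd genes had an E10.5 region within 1 kb of a start site, and 8 had an E11.5 region. Over protein-coding genes with a listed start site these shares were 68.2% and 62.8%, and 91.5% of genes with an E10.5 promoter region also had an E11.5 one. Among peaks with a −log10 p of at least 5, 9 and 5 Hoxd genes had such a region, the 5 being Hoxd1, Hoxd9, Hoxd10, Hoxd11 and Hoxd13. The share of all protein-coding genes was not counted at this cut, so this fall is not shown to be particular to Hoxd genes. The median −log10 p over all chromosome regions was 5.39 in the earlier list and 5.17 in the later. In the full lists the gene without an E11.5 region was Hoxd4. Hoxd11 lacked an E11.5 region at its first start site, where the nearest lay 1970 bp away, but had one spanning its second. To compare regions of different width, the signal per bp is given next, going from Hoxd13 to Hoxd1.

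At Hoxd13, which specifies the digits, the start site region ran from 74667081 to 74669081 in the earlier list and from 74667690 to 74668877 in the later. The signal per bp was 3.71 and 1.30. At Hoxd12 the values were 3.07 and 0.747. There the E10.5 region overlapped 3 E11.5 regions, of which the one at the start site was the weakest (signal 512, −log10 p 3.56) and the other two lay upstream at 74673033 to 74673335 and 74673762 to 74674201. At Hoxd11, which acts in the forearm and digits, the values were 3.04 and 1.26, and the E11.5 region of 2389 bp (74681528 to 74683916) was the widest and had the highest signal, 3012, of the cluster in that list. All 8 Hoxd genes with a region in both lists, these 3 among them, had a higher signal per bp in the earlier one. The share of all promoters that did so was not counted. Over all chromosome regions the median signal per bp was 1.48 in the earlier list and 1.47 in the later. Of the flanking genes compared below, a set chosen after its values were seen, Lnpk, Mtx2 and Hnrnpa3 were also higher in the earlier list. Atf2, Atp5g3, Nfe2l2 and Agps were lower. Chn1, left out of that set, was higher in the earlier list (3.98 and 2.10) at its start site with a region in both.

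At Hoxd10 the signal per bp was 2.47 and 1.56. The region was 3481 bp wide in the earlier list and 466 bp (74691462 to 74691927) in the later. At Hoxd9 it was 3.19 and 0.992, and at Hoxd8 2.60 and 0.725. The E11.5 regions of Hoxd9 and Hoxd8 were over 1 kb wide, at 74696927 to 74699298 and 74704594 to 74706108. At Hoxd3 the values were 2.46 and 1.02, and at Hoxd1, the last gene of the cluster, 1.95 and 1.11. Hoxd1 was the only Hoxd start site whose region was not narrower at E11.5, with 889 bp in the first list and 964 bp in the second. At Hoxd4 the E10.5 region (74721656 to 74722446) had a signal per bp of 1.54, the lowest of the 9 genes, and the nearest E11.5 region lay 5872 bp away.

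Hoxd4 lies in the longest stretch of the cluster without an E11.5 region, 33.2 kb from 74716107 to 74749341. The median gap between neighbouring E11.5 regions was 5.44 kb in the cluster and 24.7 kb over all chromosomes. In the 33.2-kb stretch the E10.5 list had 11 regions, among them the strongest cluster region beyond Hoxd8 without an E11.5 overlap (74727115 to 74728990, signal 3016, within Hoxd4 and Hoxd3). Another, at 74725904 to 74726985, overlapped the gene of the microRNA miR-10b, which is transcribed from within the cluster and targets Hox messages among others. Its signal of 312 over 1082 bp was the lowest per bp of the cluster, 0.289. The RefSeq mature sequence of miR-10b-5p (GRCm38.p6, chr2:74726074-74726096, plus strand), given because its gene lies under this region, has its seed, bases 2 to 8, in capitals.
miR-10b-5p: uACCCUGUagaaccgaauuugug

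Other cluster regions marked noncoding RNA genes. At Hoxd3os1, an antisense gene, the E10.5 region at 74715694 to 74716597 (signal 2255) overlapped an E11.5 region of 263 bp (signal 324) with the summit at the same base. In Haglr, the long noncoding RNA gene between Hoxd3 and Hoxd1, a region at 74749264 to 74750404 (signal 2953) overlapped an E11.5 region at 74749342 to 74750103 (signal 555), and a second at 74752516 to 74753689 (signal 1853) had no overlap. Between Evx2 and Hoxd13, in Gm31790, the region at 74661580 to 74662314 (signal 1953) was in both lists. Its neighbour at 74663205 to 74663878 was stronger (signal 2447) and was in the E10.5 list only. The cluster regions with the highest signal in the E10.5 list only lay between the Hoxd11 and Hoxd10 start sites, at 74688936 to 74690434 (signal 5236) and 74686357 to 74688430 (signal 3312).

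The genes around the cluster that are not homeobox genes gave values on the same scale within each list. They were Atf2, a stress-responsive transcription factor, Atp5g3, a subunit of the mitochondrial ATP synthase, Lnpk, an endoplasmic reticulum protein, Mtx2, a mitochondrial import protein, Hnrnpa3, an RNA-binding protein, Nfe2l2, an oxidative stress regulator, and Agps, an enzyme of ether lipid synthesis. This set of 7 was chosen after its values were seen. It leaves out Chn1, which has 2 start sites, with 3.98 and 2.10 at one and 1.88 and no E11.5 region at the other. All 7 had a region spanning the start site in both lists. Their signal per bp ranged from 2.15 to 4.40 (median 3.26) in the earlier list and from 2.33 to 4.81 (median 3.33) in the later. At Mtx2, next to Hoxd1, it was 3.26 and 2.97, and at Lnpk, beyond Evx2, 3.43 and 3.27.

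Divided by this median, the Hoxd values ranged from 0.471 to 1.14 in the earlier list, with a median of 0.799 over 9 genes. In the later list they ranged from 0.218 to 0.469, with a median of 0.320 over the 8 genes with a region. The Hoxd and flanking ranges of signal per bp therefore overlapped in the E10.5 list and did not overlap in the E11.5 list, where the highest Hoxd value was 1.56 (Hoxd10) and the lowest flanking value 2.33 (Atp5g3). In total signal, which grows with width, the Hoxd to flanking ratio of medians was 1.29 in the earlier list and 0.235 in the later, and in −log10 p it was 0.766 and 0.499. The paralogs of the HoxA cluster also lay below the flanking range in the later list, with 3.78 and 1.57 at Hoxa9, 2.67 and 0.728 at the first and 3.52 and 0.804 at the second start site of Hoxa10, 3.16 and 0.371 at Hoxa11, and 2.34 and 0.983 at Hoxa13. The later Hoxa9 region lay 258 bp from the start site. Limb genes outside the Hox clusters also had later values below that range, such as Bmp4 (1.30), Sall1 (1.43), Meis1 (1.63), Hand2 (1.72), Msx1 (1.48) and Msx2 (1.22). Fgf10 (2.24), Grem1 (2.13) and Prrx1 (2.06) were closer to it, and Gli3 (2.96), Ptch1 (2.42) and Twist1 (2.65) lay within it. Low later values were therefore not particular to Hox genes. There is 1 list per stage, so these differences have no replicate check. Evx2, a homeobox gene next to Hoxd13 that shares its limb expression, had an E10.5 region at its start site (74658316 to 74659990, 1.58 per bp) and none within 1 kb at E11.5.

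**Figure D3:**
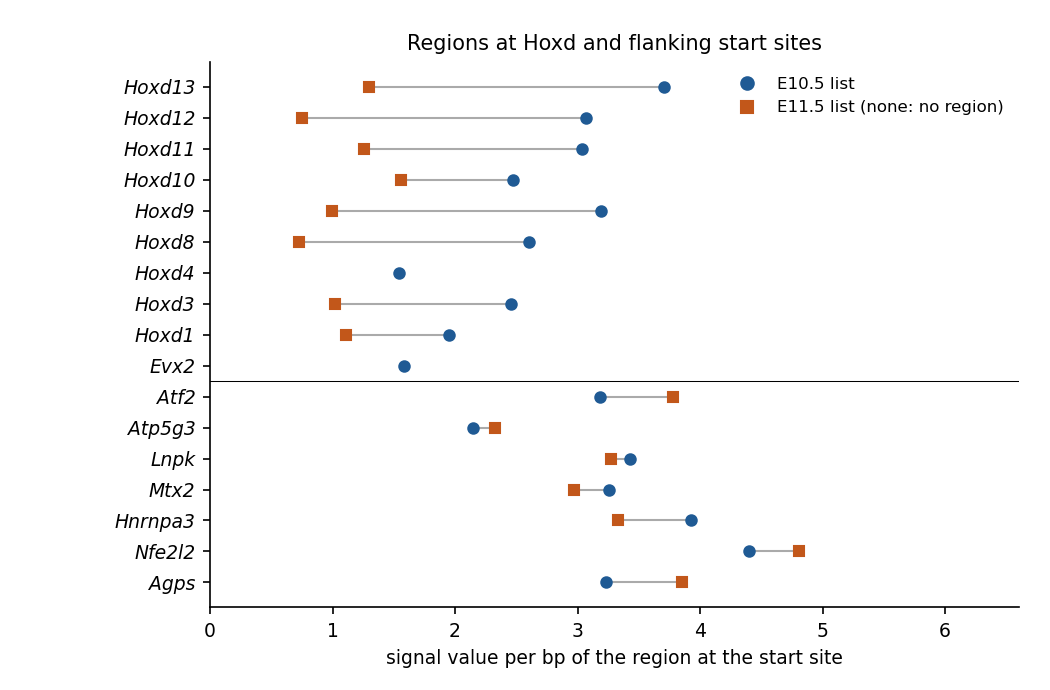
Signal value per bp of the region spanning each start site (x) for the 9 Hoxd genes and Evx2 (above the line) and 7 flanking genes (below it), with circles for the E10.5 list and squares for the E11.5 list. At E11.5 the Hoxd squares lie between 0.725 and 1.56 and the flanking squares between 2.33 and 4.81, and Hoxd4 and Evx2 have no square.

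Ranks among loci found in both lists do not depend on the scale of either list. They do depend on region width, because total signal grows with it, and they do not remove differences between libraries. Promoter loci were ranked by total signal only, so changes in width and in signal per bp are not separated in their ranks. Of 31821 such loci, 11883 lay within 1 kb of a start site. Among these, the Hoxd11 locus stood at percentile 99.6 by E10.5 signal and at 54.0 by E11.5 signal. Hoxd9 stood at 99.3 and 42.6, Hoxd12 at 98.0 and 29.0, Hoxd10 at 84.1 and 13.7, Hoxd8 at 77.1 and 20.2, and Hoxd13 at 77.0 and 27.9. Hoxd3 stood at 27.5 and 12.1. Hoxd1 alone of the 8 genes had a higher rank in the E11.5 list, at 10.6 and 19.8. The 6 cluster loci with an E10.5 percentile of at least 50 were all lower in the later list, against 55.7% of all promoter loci above that split. Below it 2 of 3 cluster loci (Hoxd3, Hoxd3os1 and Hoxd1) were lower, against 35.2%. Of the flanking genes, 4 of 4 above the split and 3 of 3 below it had higher ranks at E11.5, for example Mtx2 at 28.4 and 53.2, against 44.2% and 64.7% of all promoter loci. Chn1, outside that set, stood at 61.2 and 51.0.

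The centromeric landscape had 63 E10.5 regions, of which 59 were distal and 52 lay between genes. The 2 strongest regions of the E11.5 list here were promoters, of Lnpk (74578096 to 74579509, signal 4618) and of Atp5g3 (73910549 to 73911710, signal 2712). Their E10.5 counterparts had signals of 5759 and 2927. The 7 distal E11.5 regions had signals from 255 to 723, against a median of 474 over all distal E11.5 regions, and 2 of the 7 lay above it. The strongest, at 74380720 to 74381379, lay 287 kb centromeric of Hoxd13 between genes, and its E10.5 counterpart (74380271 to 74381467) had a signal of 3883. The next was within Evx2, 12.3 kb from Hoxd13, at 74655318 to 74656374, with 658 against 4127 at E10.5. The others lay 216, 715, 743, 429 and 601 kb from Hoxd13, with signals of 464, 417, 343, 320 and 255.

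Several of the strongest centromeric regions of the E10.5 list had no E11.5 counterpart. The second strongest at E10.5, after Lnpk, was a region of 2716 bp between genes at 74264721 to 74267436, with a signal of 5488 at percentile 91.6, 401 kb from Hoxd13. The third, at 73952267 to 73953630 (signal 4912), overlapped the E11.5 region 715 kb away. Of the 8 highest, 4 were in the E10.5 list only. Beside the 2716-bp region these lay at 74074110 to 74075463 (signal 3724), 73977417 to 73978509 in the noncoding gene Gm31472 (3304) and 74190372 to 74191461 (3041). The 8 stood at percentiles 81.8 to 92.2. Over the whole E10.5 list, 81.3% of regions at percentiles 80 to 90 overlapped a later region, and 96.7% of those from percentile 90. Between 74066959 and 74239614, over 173 kb, the E11.5 list had no region and the E10.5 list had 19. This was the longest E11.5 gap of the landscape, where the median was 94.7 kb, against 24.7 kb over all chromosomes.

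The telomeric landscape had 84 E10.5 regions, 79 of them distal, and 49 lay within a gene such as 2600014E21Rik, Gm50595 or Gm39857. The strongest E11.5 region was the Mtx2 promoter (74825484 to 74826481, signal 2963), and its E10.5 counterpart had 3235. The strongest distal region of the landscape was the same in both lists, within 2600014E21Rik and 541 kb from Hoxd13. It ran from 75208268 to 75210078 with a signal of 6629 in the earlier list and from 75208870 to 75209763 with 1061 in the later. The next at E11.5 lay 332 kb away at 75000372 to 75000848 (signal 682) on an E10.5 region of signal 5232, and 361 kb away at 75029159 to 75029667 (signal 528) on one of 3042.

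All 8 telomeric regions with the highest E10.5 signal, at percentiles 88.0 to 94.2, overlapped an E11.5 region. Over the whole E10.5 list, 81.3% of regions at percentiles 80 to 90 by signal overlapped, and 96.7% of those from percentile 90. The second of the 8, at 75438218 to 75440459 in 9430019J16Rik, had 5784 and 415. The third, at 75422666 to 75424279 between genes, had 5613 and contained 2 E11.5 regions of 408 and 440. Those at 75512258 to 75513486 (5091 and 525) and 75515029 to 75516573 (4372 and 331) lay 845 and 848 kb from Hoxd13 in Gm50595. The region at 75136697 to 75139182 (4487 and 415) covered start sites of Gm13652 and 2600014E21Rik, and the one at 75350667 to 75352093 (4364 and 325) lay in Gm39857. Regions without a later counterpart were weaker, with a median of 510 against 4364, as they were over the whole list (543 against 3131). The highest of them lay at 75395000 to 75396391 (3456), 75376184 to 75377234 (2733) and 74944815 to 74946069 (2701). Between Mtx2 and 75000371, over 174 kb, the E11.5 list had no region and the E10.5 list had 17. This was the longest E11.5 gap of the landscape, where the median was 29.6 kb, against 24.7 kb over all chromosomes. At the far end, the stretches of 100 kb from 75400000 and from 75500000 each held 13 E10.5 regions, with 5 and 4 of the later list.

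Strong distal regions were then counted in each landscape. Among distal regions in the top 20% of the E10.5 list by signal, 11 of 11 in the telomeric landscape overlapped an E11.5 region (Wilson interval 74.1 to 100%). In the centromeric landscape 3 of 8 did (37.5%, 13.7 to 69.4%), and in the cluster 1 of 4. Over all such regions of the list the share was 80.8%. In the E11.5 list 0 of 24 HoxD distal regions were in the top 20% by signal, against 7.34% of all distal regions, a difference not detectable with 24 regions. The classes were formed after the values were seen, the numbers are small, and neighbouring regions are not replicates. Ranked by signal per bp, 10 of 14 telomeric (45.4 to 88.3%) and 5 of 9 centromeric regions (26.7 to 81.1%) overlapped, and these intervals overlap each other.

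Among distal loci present in both lists, those around HoxD ranked lower by E11.5 than by E10.5 signal. There were 22 such loci, 7 centromeric, 2 in the cluster and 13 telomeric, among 19938 on all chromosomes. Their median percentile was 70.7 by E10.5 signal and 38.3 by E11.5 signal, and 21 of 22 were lower at E11.5, against 48.6% of all distal shared loci. Of the 17 with an E10.5 percentile of at least 50, all 17 were lower at E11.5, against 61.3% of all distal loci above that split, and below it 4 of 5 were lower, against 36.0%. The median percentiles in the telomeric landscape were 76.3 and 37.4, and in the centromeric landscape 52.9 and 39.5. The exception was a telomeric locus at 75584865 to 75585283, with signals of 990 and 317.

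**Figure D4:**
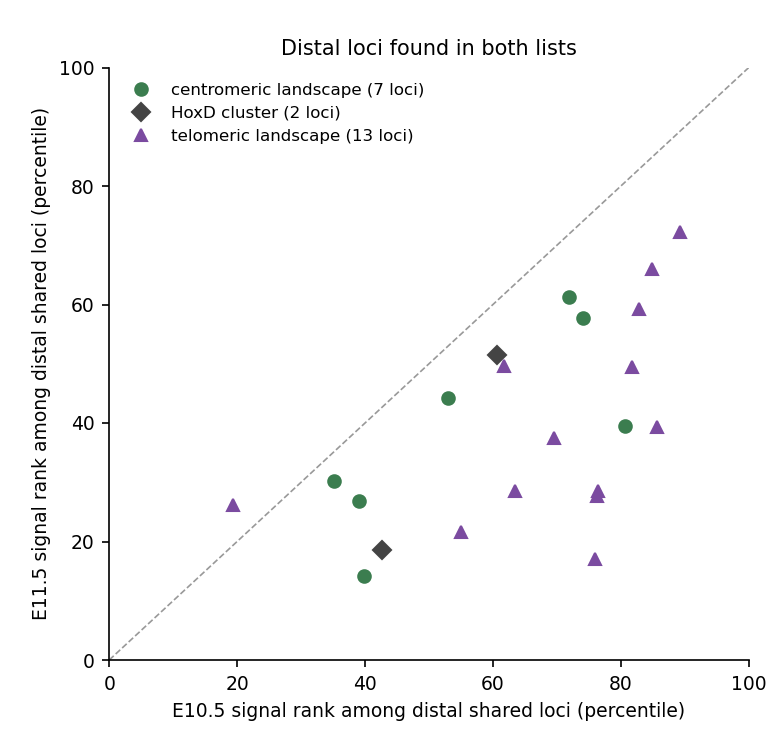
Signal rank of each distal locus of the HoxD interval that is in both lists, as a percentile among the 19938 distal shared loci, by E10.5 signal (x) and E11.5 signal (y), with a dashed line of equal rank. Of the 22 loci 21 lie below the line, and the telomeric triangles reach furthest to the right and below it.

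The other Hox clusters, which carry paralogous genes, are the loci most like this one. In the interval from the first to the last Hox gene, regions covered 51.9% of HoxD in the earlier list and 11.8% in the later. They covered 70.5% and 13.9% of HoxA, which acts with HoxD in limb patterning, 57.1% and 7.34% of HoxC, and 17.9% and 0.812% of HoxB. HoxD held 29 and 12 regions, HoxA 35 and 17, HoxC 48 and 10, and HoxB 41 and 4. The ratio of region numbers between the lists was 2.42 for HoxD and 2.06 for HoxA, below the 2.66 of all chromosomes, and 4.80 for HoxC and 10.2 for HoxB. The ratio of covered bases was 4.39 for HoxD, 5.07 for HoxA, 7.78 for HoxC and 22.0 for HoxB, each above the 2.88 of all chromosomes. In each, all E11.5 regions lay on E10.5 regions. Each cluster is 1 interval in 1 list per stage, and no difference between clusters was tested.

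**Figure D5:**
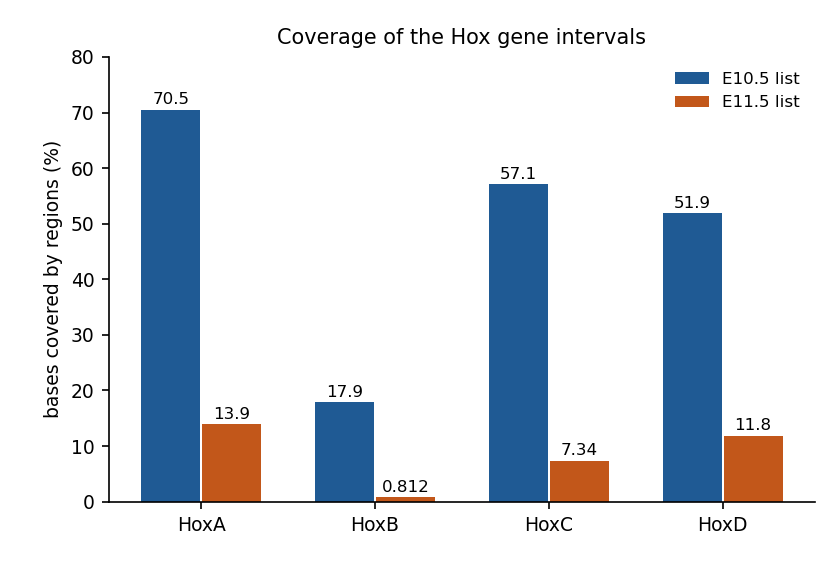
Percent of bases covered by regions between the outer ends of the first and last gene of each Hox cluster (bars from 0), for the E10.5 and E11.5 lists. HoxA, HoxC and HoxD lie between 51.9% and 70.5% at E10.5 and between 7.34% and 13.9% at E11.5, and HoxB lies lowest in both.

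Of 25 genes that work with Hoxd genes in limb patterning, 16 had a listed start site. All 16 had an E10.5 promoter region and 14 an E11.5 one, against 68.2% and 62.8% of protein-coding genes. They include the paralogs Hoxa9, Hoxa10, Hoxa11 and Hoxa13, the Hedgehog pathway genes Gli3 and Ptch1, the BMP antagonist Grem1 and the proximal homeobox genes Meis1 and Meis2, with a region in both lists. The exceptions were Fgf4, a ligand of the apical ridge, and Tbx4, a hindlimb T-box gene.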

How the data were processed

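Accessibility was measured by ATAC-seq in 4 samples, 2 replicates at each of 2 stages, grouped by their titles. Limbs were dissected, dissociated with trypsin, fixed, lysed and tagged with Tn5, per the labels' protocols. The submitters' processing notes name cutadapt, Bowtie2, SAMtools, deepTools and Genrich without version or role. Parameters, any Tn5 shift and the way replicates were combined are not given in the sources used here. The deposited lists are in narrowPeak format on mm10, per the file headers. The deposited signal value belongs to the whole peak and grows with its width, and the authors' −log10 p is given per peak. The deposited q-value column holds -1 throughout and was not used. Depth is unknown.

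Peaks were read with Python 3.11.15. Regions overlapping by at least 1 bp were shared, and promoter regions lay within 1 kb of a RefSeq start site (GRCm38.p6), a table that is not complete. Percentiles rank a region among the chromosome regions of its own list, and loci are joined regions of both lists. Overlap counting was tested on simulated intervals. Shares have 95% Wilson intervals. No test between stages was possible. Named were the 9 Hoxd genes, their neighbours, cluster regions by role, and in each landscape the 8 strongest regions per list and the 3 strongest without overlap. Members and lists were chosen with earlier results of these data known.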

Additional observations from a re-analysis of the deposited data

How the results depend on the processing

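No paired analysis was possible because the replicates of a stage are not separate in the lists, and neither could be left out. Over 18 settings and 25 results, 63 of 97 values stayed within 1.5 times (counts, ratios) or within the 95% interval (shares), and 34 moved. With a −log10 p of at least 5, the centromeric landscape had 36 and 3 regions at E10.5 and E11.5, the cluster 20 and 6, and the telomeric landscape 43 and 3. The telomeric E10.5 share overlapping was then 6.98%, and 5 Hoxd genes had an E11.5 promoter region. With the E10.5 list reduced by signal to the length of the E11.5 list, the 3 parts in the same order had 27, 19 and 27 E10.5 regions and shares of 33.3%, 57.9% and 51.9%. Of that whole reduced list 68.9% overlapped. Reduced by −log10 p, the 3 parts had 23, 16 and 27 regions and 39.1%, 68.8% and 55.6%, against 70.2% of that whole list. Both settings remove regions by construction. With a reciprocal overlap of 50%, the E10.5 share was 15.2% in the cluster and 5.95% in the telomeric landscape, and the E11.5 shares were 55.6%, 38.5% and 31.2%. With summits within 100 bp, the cluster shares were 18.2% and 46.2%, and 76.9% of all overlapping E11.5 regions had such a summit. Whole-list shares were not counted under the −log10 p cut or the reciprocal rule, nor at E10.5 under the summit rule. The shifts under these settings are therefore not shown to be particular to HoxD. In settings chosen after seeing the data, the strong distal telomeric share was 71.4% by signal per bp, the Hoxd to flanking ratio was 1.29 at E10.5 by total signal and 0.499 at E11.5 by −log10 p. The cause of these last shifts was not tested. The cluster had the highest E10.5 share, and each part more E10.5 than E11.5 regions, under every setting run on them. None of these settings separated promoter from distal regions. Among distal E10.5 regions the cluster did not have the highest share, with 2 of 18 overlapping. In the centromeric landscape 7 of 59 did and in the telomeric landscape 13 of 79.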
